A study of Mus musculus with 9 samples.

Results

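The T-cell receptor complex and its coreceptors were followed, as 10 genes, through mouse B-cell lymphomas. The genes were taken as the rows of the count table that carry the symbols Cd3d, Cd3e, Cd3g, Cd247, Cd4, Cd8a, Cd8b1, Lck, Zap70 and Cd5, which gave 10 rows of 41128, and all 10 passed the filter on low counts that left 14057 genes for testing. The lymphomas came from lymph nodes of IµBcl6 mice, in which a transgene keeps Bcl6, the transcriptional repressor that sustains the germinal center B-cell state, expressed. The Bcl6 tumors (3 mice, 1 library each) were Smc3 wt/wt;Cγ1 wt/cre;IµBcl6, and the Smc3/Bcl6 tumors (6 mice, 1 library each) were Smc3 wt/-;Cγ1 wt/cre;IµBcl6, so that both genotypes carried the transgene and the Cre, and the Smc3 allele alone set them apart. Smc3 is a core subunit of the cohesin ring. The Cγ1-Cre strain directs the deletion to B cells entering the germinal center, and T cells, the usual carriers of the 10 genes, are not the cells it was built to delete in. Mesenteric lymph node was given as the tissue for replicate 1 of each genotype and lymph node for the other tumors, while the study describes mesenteric lymph node lymphomas for both genotypes, and ages were not given in the labels. Tumors are named below by genotype and replicate number.

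The T-cell receptor binds peptide on major histocompatibility complex (MHC) molecules with its variable chains, and it signals through the CD3 chains and the zeta chain, whose cytoplasmic tyrosine motifs are phosphorylated on engagement. The coreceptors set which MHC class is read, CD4 binding class II and CD8, a dimer of alpha and beta chains, binding class I, and both bring the kinase Lck to the receptor. Lck phosphorylates the CD3 and zeta motifs, Zap70 docks on them and passes the signal on, and the surface protein Cd5 dampens it. In a germinal center lymphoma T cells that sit among the tumor cells are the usual source of these transcripts, and in bulk tissue fewer T cells cannot be told apart from less of the RNA per T cell.

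All 10 genes were detected in every tumor, and their levels differed far more between tumors of the same genotype than between the genotypes. Summed over the 10 genes, the level in CPM (counts scaled to a common library size with trimmed-mean factors) was 99.5 in Smc3/Bcl6 tumor 1, 227 in Smc3/Bcl6 tumor 6, 229.7 in Smc3/Bcl6 tumor 4 and 320.2 in Bcl6 tumor 1. It was 1078 in Smc3/Bcl6 tumor 5, 2234 in Bcl6 tumor 3, 2624 in Smc3/Bcl6 tumor 3, 2751 in Smc3/Bcl6 tumor 2 and 2872 in Bcl6 tumor 2, a range of 28.9-fold. The same 4 tumors, Bcl6 tumor 1 and Smc3/Bcl6 tumors 1, 4 and 6, held the 4 lowest values of 9 of the 10 genes, Cd4 being the exception. The lowest value of all was that of Smc3/Bcl6 tumor 1 for 8 genes and that of Smc3/Bcl6 tumor 6 for the remaining 2, Cd247 and Cd8b1. The values of the genotypes overlapped for 10 of 10 genes, while 0.484% of the 14057 genes tested did not overlap.

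**Figure D1:**
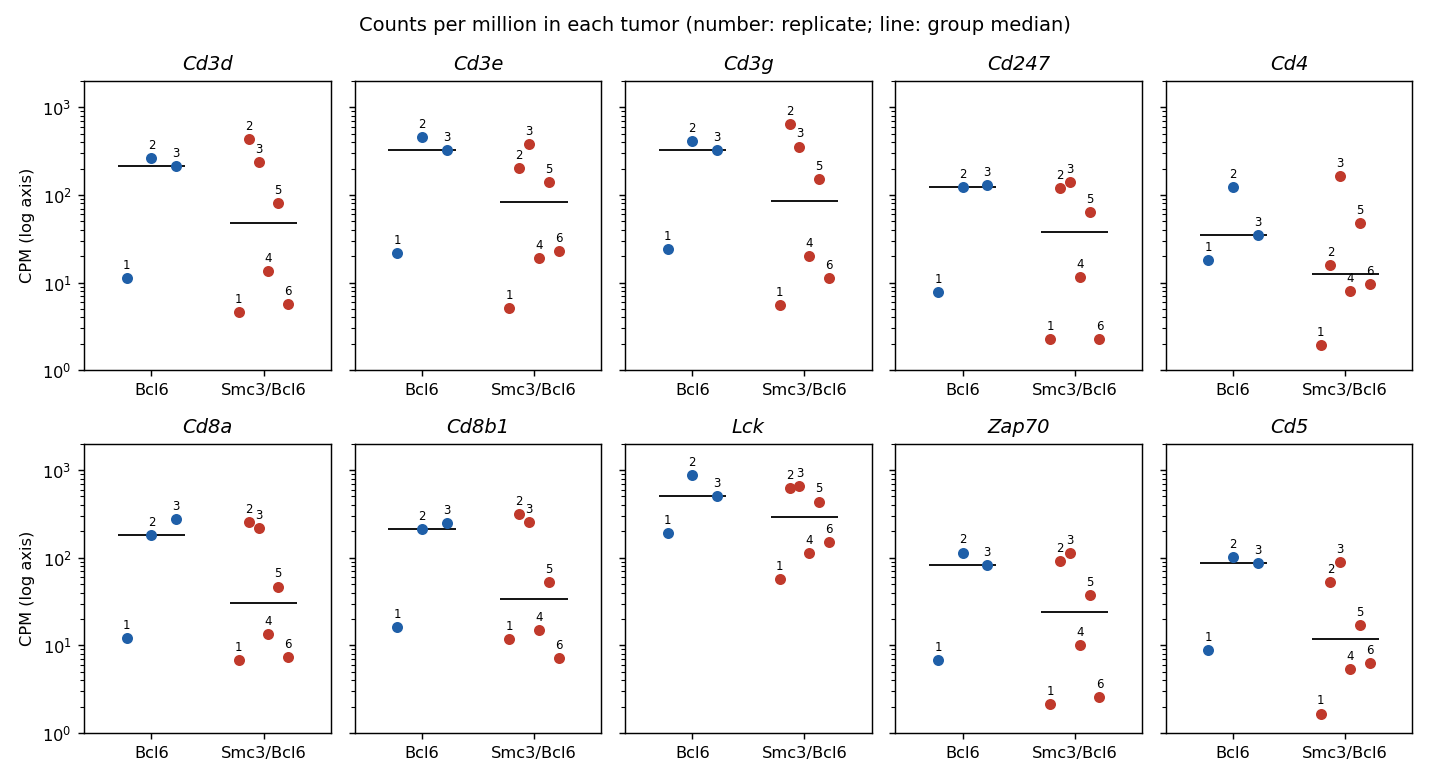
Level of each of the 10 genes in CPM (log axis) in the 3 Bcl6 and the 6 Smc3/Bcl6 tumors, each point being 1 tumor marked with its replicate number and each line the group median. Bcl6 tumor 1 lies with Smc3/Bcl6 tumors 1, 4 and 6 at the low end for all genes but Cd4, and the genotypes overlap in every panel.

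Total counts per library were between 10156728 and 17774577, with a median of 14228612, and the smallest count of any of the 10 genes in any tumor was 24, for Cd5 in Smc3/Bcl6 tumor 1. Smc3 itself, the targeted gene, was at 88.1 to 126 CPM in the Bcl6 tumors and at 27.9 to 111 CPM in the Smc3/Bcl6 tumors, and its log2 fold change was -0.19 (SE 0.38), with overlapping genotypes. Smc3/Bcl6 tumor 2 stood apart, with the lowest Smc3 level, the smallest scaling factor (0.693 against 0.964 to 1.10 in the others) and the lowest limma quality weight (0.125).

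The CD3 gamma, delta and epsilon chains are the invariant partners of the receptor, and their genes lie together on chromosome 9 (GRCm38). Cd3g (ENSMUSG00000002033.8, chr9:44969572-44980431, minus strand) and Cd3d (ENSMUSG00000032094.7, chr9:44981786-44987339, plus strand) are transcribed away from each other from starts 1355 bases apart, and Cd3e (ENSMUSG00000032093.6, chr9:44998740-45009627, minus strand) is their neighbor. The 250 bases before each start are shown because these 3 genes held the same 4 lowest tumors, a trait that 9 of the 10 genes shared. The sequences are from RefSeq on GRCm38.p6, written 5′ to 3′ on the strand of the gene, and capitals mark matches to an ETS core (GGAAG or CTTCC, both strands) or a GATA core (AGATAA or TTATCT, both strands).
Cd3d (chr9:44981536-44981785, plus strand): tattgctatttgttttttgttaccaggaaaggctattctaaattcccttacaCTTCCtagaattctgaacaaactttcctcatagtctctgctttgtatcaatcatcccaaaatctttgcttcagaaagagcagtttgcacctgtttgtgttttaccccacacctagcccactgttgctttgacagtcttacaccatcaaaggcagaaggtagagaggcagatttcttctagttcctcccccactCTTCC
Cd3g (chr9:44980432-44980681, minus strand): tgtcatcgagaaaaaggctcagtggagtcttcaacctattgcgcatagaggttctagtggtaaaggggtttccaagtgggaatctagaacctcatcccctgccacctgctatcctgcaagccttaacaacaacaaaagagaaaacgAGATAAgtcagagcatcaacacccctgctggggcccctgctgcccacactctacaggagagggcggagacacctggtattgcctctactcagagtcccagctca
Cd3e (chr9:45009612-45009861, minus strand): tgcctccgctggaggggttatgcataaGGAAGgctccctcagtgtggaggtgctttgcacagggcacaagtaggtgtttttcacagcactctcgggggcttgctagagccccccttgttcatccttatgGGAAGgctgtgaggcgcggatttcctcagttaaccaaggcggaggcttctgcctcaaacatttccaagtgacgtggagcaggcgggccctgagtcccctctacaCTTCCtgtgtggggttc
The ETS core was found 2 times before Cd3d and 3 times before Cd3e and not before Cd3g, where 1 GATA core was found. The RefSeq table held 11 windows of 8 of the genes (all but Cd4 and Cd8b1), and 9 of the 11 held an ETS core, against 64.1% of all 32851 windows of this length. A GATA core was held by 1 of the 11 (10% of all windows), a RUNX core (TGTGGT or ACCACA, both strands) by 2 (14.0%) and a TATA core (TATAAA or TTTATA, both strands) by 0 (12.4%). These matches describe the letters in the windows and are not sites of binding.

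Cd3d was at 11.3, 263 and 216 CPM in Bcl6 tumors 1, 2 and 3, and its lowest, median and highest levels in the Smc3/Bcl6 tumors were 4.58, 47.5 and 435 CPM. Cd3e was at 21.5, 454 and 322 CPM in the Bcl6 tumors and at 5.13, 82.4 and 384 CPM (lowest, median, highest) in the Smc3/Bcl6 tumors. Cd3g was at 24.3, 412 and 322 CPM in the Bcl6 tumors and at 5.62, 85.7 and 643 CPM in the Smc3/Bcl6 tumors. For each chain, Smc3/Bcl6 tumors 2, 3 and 5 lay with Bcl6 tumors 2 and 3 at the high end, and the spans of the genotypes overlapped. The ratio of the highest to the lowest tumor was 95.0 for Cd3d, 88.4 for Cd3e and 114 for Cd3g, the widest of the 10 genes.

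The difference between the genotypes was small beside this spread. On the log2 scale the edgeR fold change of Smc3/Bcl6 over Bcl6 was -0.33 for Cd3d (SE 1.38), -1.04 for Cd3e (SE 1.19) and -0.35 for Cd3g (SE 1.35), with an adjusted p of 1 for each. Exact two-sided permutation tests on log2 CPM gave p = 0.524 for Cd3d, 0.357 for Cd3e and 0.429 for Cd3g. Without Bcl6 tumor 2 the values were 0.06 for Cd3d, 0.07 for Cd3g and -0.50 for Cd3e. Without Smc3/Bcl6 tumor 2 they were -1.25 for Cd3d and -1.21 for Cd3g, and without Smc3/Bcl6 tumor 3 that of Cd3e was -1.83. The p-values set the difference between the genotypes against the spread between these tumors.

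Cd247 codes for the zeta chain, which carries most of the signaling motifs of the complex (ENSMUSG00000005763.10, chr1:165788681-165877277, plus strand). Its annotated span overlaps Pou2f1 on the other strand, and the strand setting of the authors' counting was not given in the sources used here, so some of its reads could come from that gene. Annotated genes also overlap Cd3e (Gm48719 on the other strand and Gm48720 on the same strand) and Zap70 (the pseudogene Gm18828 on the other strand). The unknown strand setting bears on their counts too, and Cd3e is the divisor of most ratios given below. Cd247 was at 7.76, 123 and 130 CPM in the Bcl6 tumors and at 2.27, 37.4 and 141 CPM (lowest, median, highest) in the Smc3/Bcl6 tumors, and its log2 fold change was -0.61 (SE 1.26; exact permutation test, p = 0.476). The same tumors were high as for the CD3 chains, and the genotypes overlapped. The fold change was -1.22 without Bcl6 tumor 1 and -0.20 without Bcl6 tumor 3.

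Among the coreceptors, Cd8a and Cd8b1 followed the CD3 chains and Cd4 did so less closely. Cd8a (ENSMUSG00000053977.8, chr6:71373427-71379173, plus strand) and Cd8b1 (ENSMUSG00000053044.7, chr6:71322788-71337494, plus strand) code for the alpha and beta chains of CD8, and Cd4 (ENSMUSG00000023274.9, chr6:124864692-124888221, minus strand) for the class II coreceptor. Cd8a was at 12.1, 183 and 274 CPM in the Bcl6 tumors and at 6.80, 30.2 and 253 CPM (lowest, median, highest) in the Smc3/Bcl6 tumors. Cd8b1 was at 16.3, 212 and 251 CPM in the Bcl6 tumors and at 7.20, 34.1 and 317 CPM in the Smc3/Bcl6 tumors. For both chains Bcl6 tumors 2 and 3 and Smc3/Bcl6 tumors 2 and 3 were the 4 highest. Cd4 was at 17.9, 123 and 35.2 CPM in the Bcl6 tumors, and in Smc3/Bcl6 tumors 1 to 6 it was at 1.94, 15.8, 164, 8.12, 47.5 and 9.60 CPM. Smc3/Bcl6 tumor 2, which was among the highest in Cd8a and Cd8b1, was below Bcl6 tumor 1 in Cd4. The genotypes overlapped for all 3 coreceptor genes, and the log2 fold changes were -0.78 for Cd8a (SE 1.24), -0.54 for Cd8b1 (SE 1.22) and -0.51 for Cd4 (SE 1.15). Exact permutation tests gave p = 0.452 for Cd8a, 0.524 for Cd8b1 and 0.357 for Cd4. Without Bcl6 tumor 3 the values were -0.10 for Cd8a and -0.06 for Cd8b1, and without Smc3/Bcl6 tumor 2 they were -1.44 and -1.23. The Cd4 value turned to 0.62 without Bcl6 tumor 2 and to -1.84 without Smc3/Bcl6 tumor 3, the tumors with its highest levels.

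The Cd4 to Cd8a ratio of CPM was 1.48, 0.671 and 0.128 in Bcl6 tumors 1, 2 and 3 and 0.286, 0.0622, 0.755, 0.604, 1.01 and 1.30 in Smc3/Bcl6 tumors 1 to 6. Bcl6 tumor 3 and Smc3/Bcl6 tumor 2 were lowest, the genotypes overlapped, and the ratio spanned 23.8-fold. Per kilobase of exon, Cd8a was above Cd4 in 7 of the 9 tumors. The mean log2 ratio (1 CPM added to each gene) was -0.99 ± 1.77 (SD, n = 3) in the Bcl6 tumors and -1.01 ± 1.55 (SD, n = 6) in the Smc3/Bcl6 tumors, a difference of -0.02 that was within the spread of either genotype (exact two-sided permutation test, p = 0.952, and 0.952 after Benjamini-Hochberg adjustment over 11 ratios). The smallest p that 3 against 6 tumors allow is 0.0238. The 2 low tumors stayed low after a correction for gene length and GC content, with log2 ratios of -2.93 in Bcl6 tumor 3 and -3.86 in Smc3/Bcl6 tumor 2. Without Smc3/Bcl6 tumor 2 the difference between the genotypes was 0.57 on the log2 scale (exact permutation test, p = 0.607).

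Some genes outside the complex bear on what cells the coreceptor transcripts came from. Zbtb7b and Runx3, regulators of the CD4 and CD8 lineages, were at 9.16 to 22.5 and at 23.8 to 112 CPM over the 9 tumors, and both are also expressed outside T cells. Cd40lg, a ligand that activated CD4 T cells show to B cells, was highest where Cd4 was, at 4.54 CPM in Bcl6 tumor 2 and 6.95 CPM in Smc3/Bcl6 tumor 3. Of the markers of the dendritic cells that can carry Cd8a without Cd8b1, Xcr1 was at 0.933 to 20.5 CPM and Clec9a at 0.763 to 7.37 CPM. The Cd8a to Cd8b1 ratio stayed within 0.580 to 1.09, the narrowest span (1.88-fold) of the 11 ratios, which did not hold under the length and GC correction, where Smc3/Bcl6 tumor 2 rose to 1.48 on the log2 scale and the others stayed between -0.90 and -0.05.

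**Figure D2:**
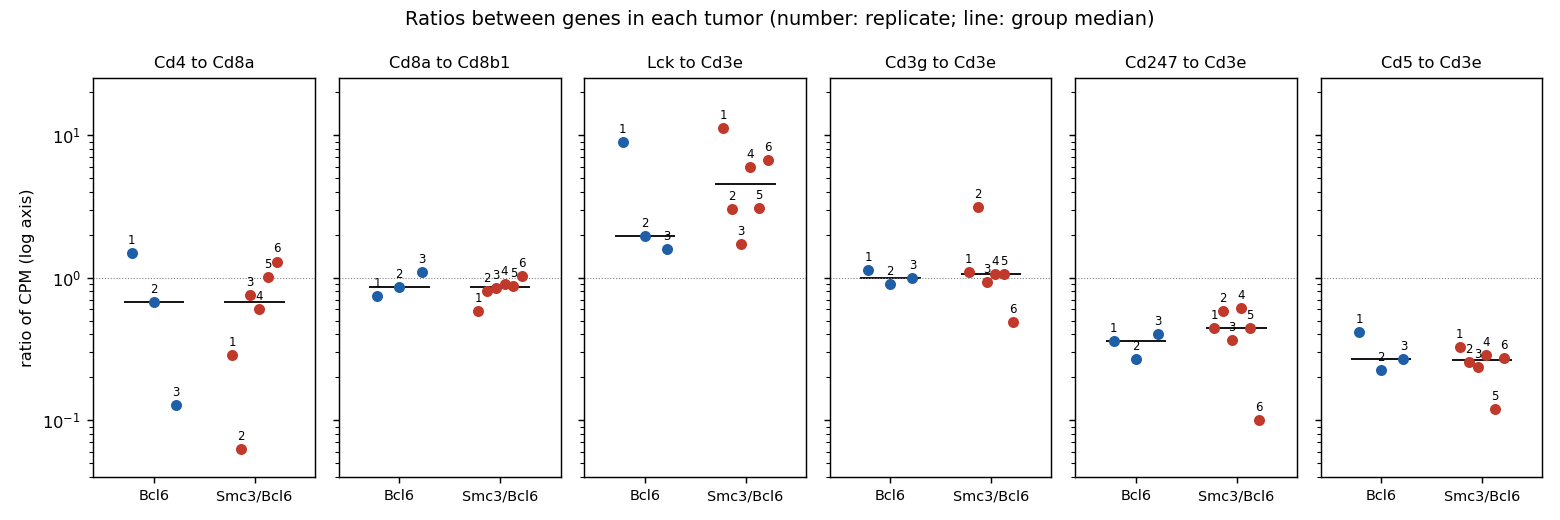
Ratio of CPM between pairs of genes (log axis) in each tumor, with points marked by replicate number, lines at the group medians and a dotted line at equal CPM. The Cd4 to Cd8a ratio runs from 0.0622 to 1.48 with the lowest values in Bcl6 tumor 3 and Smc3/Bcl6 tumor 2, while Cd8a to Cd8b1 stays between 0.580 and 1.09.

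The kinases differed from each other in level and in spread. Lck (ENSMUSG00000000409.9, chr4:129548344-129573641, minus strand) is the Src-family kinase that starts the signal, and Zap70 (ENSMUSG00000026117.9, chr1:36761798-36782818, plus strand) the kinase recruited next. Lck is known to be transcribed from a proximal and a distal promoter, whose RefSeq starts lie 15269 bases apart on GRCm38.p6. Both windows are shown because Lck was the least variable of the 10 genes, with capitals for the ETS core and, in the distal window, the RUNX core named above. The counts are per gene, so the use of either start was not measured.
Lck proximal (chr4:129558373-129558622, minus strand): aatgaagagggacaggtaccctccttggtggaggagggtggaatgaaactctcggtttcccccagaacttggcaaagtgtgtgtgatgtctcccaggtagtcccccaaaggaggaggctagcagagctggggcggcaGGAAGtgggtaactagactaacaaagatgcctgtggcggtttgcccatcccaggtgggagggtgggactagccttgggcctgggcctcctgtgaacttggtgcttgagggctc
Lck distal (chr4:129573642-129573891, minus strand): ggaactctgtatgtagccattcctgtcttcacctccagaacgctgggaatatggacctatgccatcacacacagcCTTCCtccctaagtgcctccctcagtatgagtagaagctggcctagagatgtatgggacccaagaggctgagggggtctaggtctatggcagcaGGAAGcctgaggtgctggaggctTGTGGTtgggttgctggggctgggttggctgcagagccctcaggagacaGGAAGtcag
The ETS core was found 1 time in the proximal and 3 times in the distal window, which also held 1 RUNX core.

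Lck was at 193, 887 and 512 CPM in the Bcl6 tumors and at 57.6, 295 and 662 CPM (lowest, median, highest) in the Smc3/Bcl6 tumors. Zap70 was at 6.79, 115 and 83.5 CPM in the Bcl6 tumors and at 2.15, 23.7 and 113 CPM in the Smc3/Bcl6 tumors. Both overlapped between the genotypes, with log2 fold changes of -0.64 for Lck (SE 0.76) and -0.68 for Zap70 (SE 1.20), and exact permutation tests gave p = 0.333 and 0.476. Without Bcl6 tumor 2 the fold changes were -0.12 for Lck and -0.18 for Zap70, against -1.09 for Lck without Bcl6 tumor 1 and -1.34 for Zap70 without Smc3/Bcl6 tumor 3. The highest tumor exceeded the lowest 15.4-fold for Lck and 53.3-fold for Zap70. Per kilobase of exon, Lck was the highest of the 10 genes in 8 of 9 tumors, Cd3d being above it in Smc3/Bcl6 tumor 2. The median over the 9 tumors was 149.5 CPM per kb for Lck, 46.3 for Cd3g, 44.8 for Cd3d, 35.9 for Cd8b1, 34.8 for Cd3e, 12.9 for Cd8a, 12.5 for Zap70, 11.9 for Cd247, 4.44 for Cd4 and 3.46 for Cd5. Each neighbor in that order had overlapping values over the tumors.

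Lck was less low than the CD3 chains in the tumors where those chains were scarce. The Lck to Cd3e ratio of CPM was 8.98 in Bcl6 tumor 1 and 11.2, 6.02 and 6.68 in Smc3/Bcl6 tumors 1, 4 and 6, against 1.95 and 1.59 in Bcl6 tumors 2 and 3 and 3.02, 1.72 and 3.09 in Smc3/Bcl6 tumors 2, 3 and 5. Lck is also expressed outside T cells, as in natural killer cells and some B cells, and which cells gave its counts was not tested. Cd3e is the divisor of this ratio, so a low Cd3e raises it. The genotypes did not differ beyond their spread (difference of 0.50 in the mean log2 ratio, exact permutation p = 0.452, adjusted p = 0.952 over 11 ratios).

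Cd5 (ENSMUSG00000024669.7, chr19:10717116-10739002, minus strand), the negative regulator, is also the marker of B-1 cells. It was at 8.91, 101 and 87.0 CPM in the Bcl6 tumors and at 1.67, 11.7 and 89.8 CPM (lowest, median, highest) in the Smc3/Bcl6 tumors. Its tumors ranked much like those of the CD3 chains and the genotypes overlapped, with the largest log2 fold change of the 10 genes, -1.19 (SE 1.10; exact permutation test, p = 0.262). It was -2.08 without Smc3/Bcl6 tumor 3 and -0.82 without Bcl6 tumor 2. The Cd5 to Cd3e ratio was within 0.223 to 0.414 in every tumor but Smc3/Bcl6 tumor 5, where it was 0.120. Of the other genes of the B-1 list, Bhlhe41 (14.2 to 98.1 CPM) and Spn (21.1 to 98.1 CPM) were highest in that tumor. Zbtb32 was highest in Bcl6 tumor 2 (130 CPM) and Plscr1 in Smc3/Bcl6 tumor 2 (86.1 CPM). The part of B-1 cells in the Cd5 values was not tested.

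Over the 10 genes, 10 log2 fold changes were negative and 0 passed the study's thresholds (p under 0.1 before adjustment, log2 fold change beyond 0.56) in either direction with edgeR, where 1.28% of the 14057 genes passed as higher and 0.868% as lower in Smc3/Bcl6. At an unadjusted p below 0.05, 0 of the 10 passed (0.562% of all), and at an adjusted p below 0.05, 0 passed, as did 0 of all genes tested. DESeq2 called 0 of the 10 as higher (2.49% of all) and 0 as lower (0.735%). The median log2 fold change of the 10 genes was -0.63, against 0.06 over all genes tested, and their median SE was 1.21, against 0.46. The 10 genes rise and fall together over the tumors, so that their common sign is not 10 separate observations. The exact permutation tests of the log2 CPM of the 10 genes, given above, span p from 0.262 to 0.524.

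**Figure D3:**
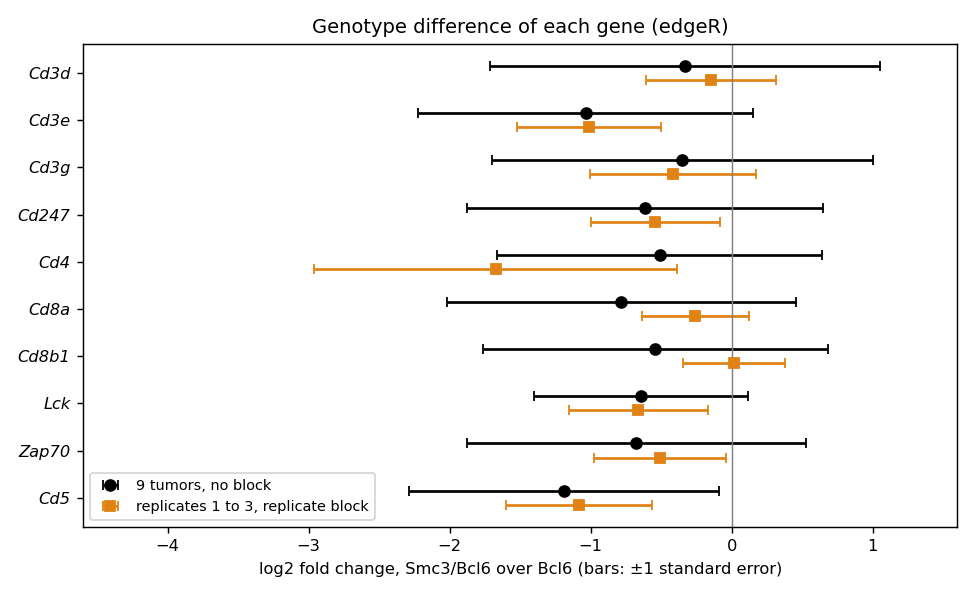
Log2 fold change of Smc3/Bcl6 over Bcl6 for each of the 10 genes with bars of 1 SE on each side, from edgeR over 9 tumors (black) and from the 3 same-numbered pairs fitted with a replicate block (orange). All 10 black points lie left of 0 with their bars reaching past 0 for all genes but Cd5, while the blocked values of Cd3e and Cd5 are -1.01 and -1.08 with SE of 0.51 and 0.52.

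Other fits of the same tumors called some or all of the genes. When tumors of the same number were treated as pairs (a replicate block, 3 pairs), 2 of the 10 genes passed the thresholds as lower in Smc3/Bcl6 (1.9% of the genes tested passed as lower and 0.337% as higher), Cd3e at -1.01 (SE 0.51) and Cd5 at -1.08 (SE 0.52), and the edgeR adjusted p of both was 0.983. The other 8 did not pass, among them Cd4 at -1.67 (SE 1.29) and Cd8b1 at 0.01 (SE 0.36). With the tissue label as a term, Cd5 passed as lower (-1.69), where 1.37% of all genes did, and 0 of the 10 passed as higher (0.925% of all). Bcl6 tumor 1 and Smc3/Bcl6 tumor 1, the 2 tumors labelled mesenteric, were both among the 4 lowest. The study's text gives that site for all, and whether the label marks a difference in tissue was not tested. Leaving out 1 tumor at a time, the edgeR fit called 2 genes without Smc3/Bcl6 tumor 3, Cd4 at -1.84 and Cd5 at -2.08, both lower (2.32% of all, with 2.19% higher), and 0 without any of the other 8 tumors. Among these was Smc3/Bcl6 tumor 2, without which 1.39% of all genes passed as lower and 2.43% as higher.

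With limma voom and quality weights, 10 of the 10 genes passed as lower, where 7.13% of all genes passed as lower and 4.57% as higher. The log2 fold changes ran from -1.59 for Lck to -3.01 for Cd3d, with an adjusted limma p of 0.563 for each. This fit gave a weight of 3.30 to Bcl6 tumor 2, which had the highest summed level of the 10 genes. It gave 2.61 to Smc3/Bcl6 tumor 6, which was among the lowest, and 0.125 to Smc3/Bcl6 tumor 2, where the sum was next to the highest. The other weights were 0.76 and 1.52 in Bcl6 tumors 1 and 3, and 1.03, 1.09, 0.574 and 1.24 in Smc3/Bcl6 tumors 1, 3, 4 and 5. Which of the weights bear on the calls was not tested. In a pair of fits chosen after seeing the data, it again called 10 as lower without Smc3/Bcl6 tumor 2 (6.11% of all, with 4.58% higher), and limma voom without the weights called 0 as lower (1.06% of all) and 0 as higher (0.534%).

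The chains did not keep the same proportions in every tumor. Relative to Cd3e, Smc3/Bcl6 tumor 6 had the lowest Cd247 (0.0994, against 0.270 to 0.613 in the other tumors), Zap70 (0.114, against 0.253 to 0.532), Cd3d (0.249, against 0.525 to 2.12) and Cd3g (0.491, against 0.908 to 3.14). Cd8a and Cd8b1 relative to Cd3e were also lowest in this tumor, at 0.325 and 0.316. Cd3e is the shared divisor of these ratios. Counted from the lowest tumor, tumor 6 ranked 4 in Cd3e. It ranked 1 in Cd247 and Cd8b1, 2 in Cd3d, Cd3g, Cd8a and Zap70, and 3 in Cd4, Cd5 and Lck. Whether Cd3e or the other genes set these ratios was not tested. Smc3/Bcl6 tumor 2 had the highest Cd3d and Cd3g relative to Cd3e, at 2.12 and 3.14. After the correction for length and GC content its Cd3d to Cd3e ratio, -0.73 on the log2 scale, lay within the other tumors, and its Cd3g to Cd3e ratio, 1.24, was still the highest. Smc3/Bcl6 tumor 4 had the highest Cd247 and Zap70 relative to Cd3e, at 0.613 and 0.532. It was also highest in 4 of the 8 genes of the natural killer cell list, the receptors Ncr1 (32.6 CPM), Klrb1c (41.7 CPM), Klra4 and Klra8 (10.5 CPM), and not in the other 4, among them the cytotoxic gene Prf1 at 18.2 CPM and the factor Eomes at 9.18 CPM. Natural killer cells also use the zeta chain and Zap70, and their part in these ratios was not tested. In none of the 11 ratios did the genotypes differ beyond their spread (exact permutation p from 0.452 to 0.952, adjusted p = 0.952 for each).

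The other genes of the pathway showed the same spread. Of 35 further genes of T-cell receptor signaling, all tested, 0 passed the edgeR thresholds as higher (1.28% of all) and 0 as lower (0.868%), 27 had a negative and 8 a positive log2 fold change, and the median was -0.55. At an unadjusted p below 0.05 none passed, and DESeq2 also called 0 in each direction. Trac, the constant region of the receptor alpha chain, was at 10.1, 209 and 160 CPM in the Bcl6 tumors and at 2.08, 8.05, 5.53, 164, 182 and 85.1 CPM in Smc3/Bcl6 tumors 1, 4, 6, 2, 3 and 5. It thus split into the same high and low tumors as the CD3 chains, with a log2 fold change of -0.76 (SE 1.29). The beta chain constant regions Trbc1 and Trbc2, which are near-identical copies between which reads could be split, had values of -0.84 (SE 1.38) and -0.30 (SE 1.42).

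Among the signaling proteins downstream of the receptor, the adaptors Lat and Lcp2 had log2 fold changes of -0.82 (SE 1.32) and -0.85 (SE 0.76). The surface genes Cd2, Thy1 and Cd28, of which Cd28 is the main costimulatory receptor, had -0.24 (SE 0.78), -0.76 (SE 1.34) and -0.59 (SE 1.08). Thy1 was at 0.139 to 29.3 CPM and Cd28 at 0.441 to 13.0 CPM over the tumors, against 43.0 to 667 CPM for Cd2. The phosphatase Ptpn6 and the kinase Csk, which B cells share, varied less, at 846 to 1503 and 220 to 422 CPM, with log2 fold changes of 0.13 (SE 0.27) and -0.02 (SE 0.29). With the replicate block, 6 of the 35 passed as lower (1.9% of all), among them Themis at -1.60, Txk at -1.13, Prkcq at -1.28, Fyb at -1.22 and Cd6 at -1.16, each of these with an edgeR adjusted p of 0.983. Limma with quality weights called 23 as lower (7.13% of all), and limma without the weights called 0 (1.06%).

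The genes of the whole table whose log2 CPM followed the mean of Cd3d, Cd3e and Cd3g most closely over the 9 tumors were, outside the lists, Trbv13-2, Trbj2-1, Wdr95, Trbj2-3, Trbv12-2, Fasl, Nkg7 and Fam26f, with Pearson r from 0.995 for Trbv13-2 to 0.985 for Fam26f. Of these, 4 are segments of the T-cell receptor beta locus, and Fasl and Nkg7 belong to cytotoxic cells. Among the 14057 genes tested, Zap70 ranked 14 by this measure, Cd247 23, Cd8a 25, Lck 46, Cd8b1 51 and Cd5 52, and Cd4 ranked 548 with an r of 0.82. Cd3g, Cd3d and Cd3e ranked 1, 6 and 22 but are part of the mean. The tumors fall into a low and a high set with Cd3e, 4 at 2.40 to 4.52 and 5 at 7.15 to 8.83 on the log2 CPM scale, so these r describe that split and have no test.

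Summed levels of some other cell lists moved with the 10 genes, though not all of their genes did. The macrophage list summed to 433, 3589 and 7997 CPM in Bcl6 tumors 1, 2 and 3 and to 270 to 8487 CPM in the Smc3/Bcl6 tumors, with tumor 1 the lowest in each genotype. Much of this sum was Lyz2, at 5424 of the 7997 CPM in Bcl6 tumor 3, while Csf1r (720 CPM) and Adgre1 (157 CPM) were highest in Smc3/Bcl6 tumor 4, where the 10 genes were low. The natural killer cell list summed to 37.0 to 345 CPM in the Bcl6 and 18.8 to 401 CPM in the Smc3/Bcl6 tumors, again lowest in tumor 1 of each. Prf1 and Eomes made up much of it in the tumors where it was high, at 166 and 87.6 CPM in Bcl6 tumor 2, while Ncr1 and Klrb1c peaked in Smc3/Bcl6 tumor 4. The B-cell list, summed over 11 rows with both rows of Cr2, ran the other way in part. It went from 2955 CPM in Bcl6 tumor 3 to 9405 CPM in Bcl6 tumor 1 and from 5213 to 12621 CPM in the Smc3/Bcl6 tumors. The part of these cells in the levels of the 10 genes was not tested.

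**Figure D4:**
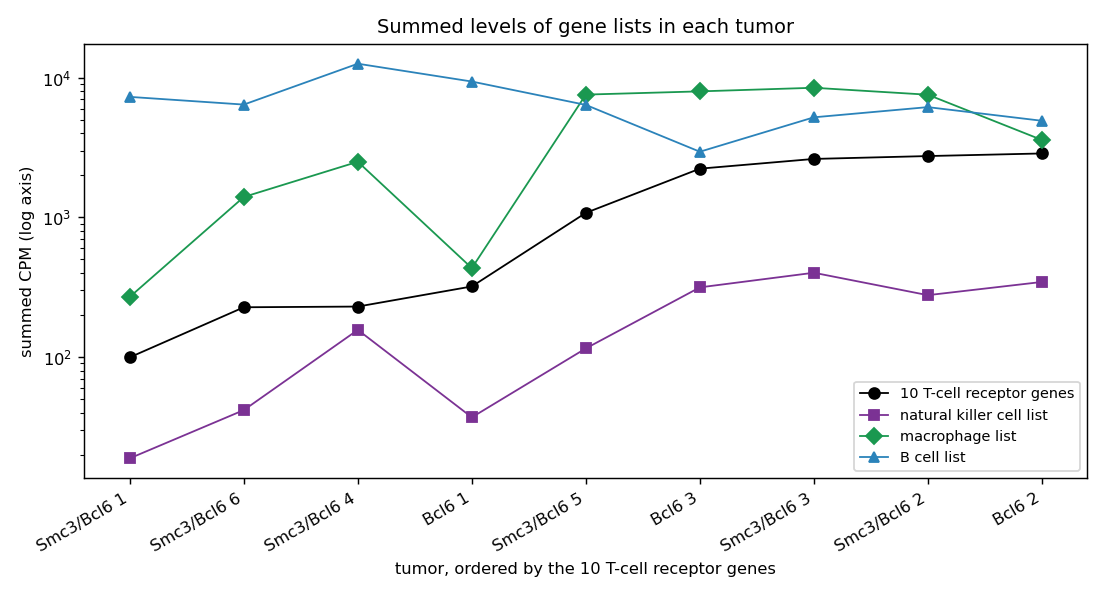
Summed CPM (log axis) of the 10 T-cell receptor genes and of the natural killer cell, macrophage and B-cell lists in each of the 9 tumors, ordered by the sum of the 10 genes from 99.5 to 2872 CPM. The macrophage list is at 270 CPM in the first tumor and at 3589 CPM or more in the last 5, while the B-cell list stays between 2955 and 12621 CPM.

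Few genes of the other lists passed the edgeR thresholds, which 1.28% of all genes passed as higher and 0.868% as lower. The T-cell identity list, which holds transcription factors and homing receptors of T cells, had 0 of 14 genes called and a median log2 fold change of -0.50, and the gamma-delta list 0 of 3 with -0.47. The median was 0.42 for the B-cell list, with 0 of 11 rows called, Cr2 having 2 rows among its 10 genes. It was -0.18 for the germinal center list (0 of 6), 0.57 for the plasma cell list (0 of 6) and 0.27 for the macrophage list (0 of 10). For the dendritic cell list it was -0.18 (0 of 10), for the natural killer list 0.15 (0 of 8) and for the B-1 list, which holds Cd5, -0.27 (0 of 5). In the neutrophil list 2 of 6 passed as lower, Mpo at -3.84 and Elane at -4.00, with Bcl6 tumor 3 alone high at 209 and 75.2 CPM. In the erythroid list 2 of 6 passed as higher, among them Slc4a1 at 4.69, with Smc3/Bcl6 tumors 4 and 6 high. The thymocyte genes Ptcra, Rag1 and Rag2 reached at most 0.133, 0.209 and 0.162 CPM in any tumor, and 0 of the 2 genes of that list that could be tested were called (median 0.61). With the replicate block the calls of the neutrophil and erythroid lists were lost (0 in each), with Mpo at -0.50 (SE 2.18), Elane at -0.32 (SE 2.34) and Slc4a1 at -0.37 (SE 1.58). The block fit holds only replicates 1 to 3 of each genotype, so the high erythroid tumors, Smc3/Bcl6 tumors 4 and 6, are not in it. An effect of the block on the erythroid calls cannot be told apart from the absence of these tumors. Under the block 1.9% of the genes tested passed as lower and 0.337% as higher. Of the macrophage list, 3 of 10 passed as lower, Adgre1 at -1.88, Mertk at -1.60 and Csf1r at -1.19. So did Lef1 at -2.34 and Il7r at -1.67 of the T-cell identity list and Itgae at -0.94 of the dendritic cell list. Eomes at -0.99 of the natural killer list and Cd5 of the B-1 list also passed as lower. The edgeR adjusted p of each of these genes under the block was 0.983.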

How the data were processed

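RNA-seq counts of 3 Bcl6 and 6 Smc3/Bcl6 lymphomas were used, with genotype and replicate number from the labels. The authors prepared libraries with Illumina TruSeq kits, ran nf-core/rnaseq, aligned reads to mm10 with STAR and counted them per gene with featureCounts, and they deposited these counts without normalization. The submitters' processing notes also name R 4.0.2 and DESeq2 1.28.1. The strand setting is not given in the sources used here. GENCODE M21 (GRCm38) held 97.9% of the identifiers and was the source of positions and exon lengths, and 0 columns lacked a sample. Total counts per library were 10156728 to 17774577.

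The genotype test was run in edgeR 4.0.16 (R 4.3.3; TMM normalization, filterByExpr, quasi-likelihood test, Benjamini-Hochberg adjustment over 14057 genes). A gene was called by the study's thresholds, p under 0.1 before adjustment and a log2 fold change beyond 0.56 either way. Log2 CPM used a prior count of 2. Log2 ratios used 1 CPM added to each gene and an exact permutation over the 84 splits of the tumors. The fitting was tested on simulated counts. Correlations with Cd3e had been planned and are not given, since the tumors fell into separate sets.

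Alternatives were DESeq2 1.42.0, limma 3.58.1 (voom, with and without quality weights), RLE normalization, no filter, no immunoglobulin and T-cell receptor genes, the tissue label as a term, a length and GC offset (lowess span 0.3), pseudocounts of 0.5 and 5 CPM, leaving out each tumor, and the replicate number as a block. Deviations of same-numbered tumors from their genotype means correlated across genes at 0.443, 0.113 and 0.155 for replicates 1, 2 and 3. On these values the numbers were taken to pair the tumors. Tumors of different numbers were not compared in this way, so these correlations cannot show that the numbers mark pairs. The labels do not say what a number marks, and the pairing is an assumption.

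Named were the 10 genes, the called genes of the T-cell receptor pathway list with Trac, Trbc1, Trbc2, Lat, Lcp2, Cd28, Cd2, Thy1, Ptpn6 and Csk, the 8 genes in none of the lists most like the CD3 chains, and leading markers of the other lists (T-cell identity, gamma-delta T cell, B cell, germinal center, plasma cell, macrophage, dendritic cell, natural killer cell, thymocyte, B-1, neutrophil, erythroid). Zbtb7b, Runx3, Cd40lg, Clec9a, Klrb1c, Klra4, Klra8, Prf1, Eomes, Lyz2, Csf1r, Adgre1, Mertk, Lef1, Il7r, Itgae, Bhlhe41, Mpo, Elane and Slc4a1 were named after their values were seen. So were Spn, Zbtb32, Plscr1 and Cr2. The genes and lists were chosen with earlier results of these data known. Trdc was not analysed here, and some genes that this rule names are not reported here.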

Additional observations from a re-analysis of the deposited data

Results flagged for a closer look

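Among 21 measures of the 6 Smc3/Bcl6 tumors, 1 tumor stood far from the other 5 in 2, where chance gives about 1.05. In the log2 Cd247 to Cd3e ratio, Smc3/Bcl6 tumor 6 was lowest, and its gap to the nearest tumor was 0.646 of the whole range (critical value of Dixon's test 0.625). Its ratio of CPM was 0.0994, from the zeta chain at 2.27 CPM and Cd3e at 22.8 CPM. Other ratios over Cd3e were also lowest in this tumor, and whether Cd247 or Cd3e set the ratio was not tested. In the log2 Cd4 to Cd3e ratio, Smc3/Bcl6 tumor 2 was lowest, with a gap of 0.804 of the range. Its ratio of CPM was 0.0769, against 0.334 to 0.430 in the other Smc3/Bcl6 tumors, and Bcl6 tumor 3 had a similar 0.109.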

How the results depend on the processing

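Of 10 genes, 0 were called in either direction over the 9 tumors, and the count of genes higher stayed at 0 in each of the 24 other settings, as it did for the 35 pathway genes. The count of genes lower was 10 under limma with quality weights (7.13% of all genes) and 10 again without Smc3/Bcl6 tumor 2 (6.11%). It was 1 with the tissue label as a term (1.37%). With the replicate block it was 2, alone (1.9%) or with the length and GC offset (1.89%). Both block fits hold only replicates 1 to 3, and for the same tumors without the block it was 0 (0.659%). Leaving out 1 tumor at a time gave 0 to 2, where 0.44% to 2.32% of all genes were lower. For the pathway genes lower, the count under the weights was 23 with all tumors and 21 without Smc3/Bcl6 tumor 2. It was 4 with the tissue label, 6 with the replicate block, 5 with block and offset and 0 for replicates 1 to 3 without the block, against the shares just given. Leaving out 1 tumor gave 0 to 7. The count was 2 without Bcl6 tumor 1 (1.64% of all genes) and 7 without Smc3/Bcl6 tumor 3 (2.32%). Under the block no other call on the 10 genes or the pathway list changed, and those of other cell lists that did are given with the lists. The cause of these shifts was not tested.

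Signs turned in these cases, and no value with a turned sign passed a test. Without the block, replicates 1 to 3 gave 0.38 for Cd3d, 0.32 for Cd3g, 0.053 for Cd4 and 0.20 for Cd8b1 (chosen after seeing the data), and the block gave 0.014 for Cd8b1. Leaving out 1 tumor gave ranges of -1.25 to 0.061 for Cd3d, -1.21 to 0.070 for Cd3g and -1.84 to 0.62 for Cd4. The genotype difference in log2 ratio was 0.14 for Cd4 to Cd8a and 0.0001 for Cd5 to Cd3e with 5 CPM added, and -0.20 for Cd4 to Cd3e within the replicate block. The length and GC offset gave 0.16 for Cd8a to Cd8b1, -0.0089 for Cd3d, -0.072 for Cd8b1 and -0.039 for Zap70, the last 3 over Cd3e. Leaving out 1 tumor gave ranges of -0.99 to 0.74 for Cd4 to Cd8a, -0.22 to 0.050 for Cd8a to Cd8b1, and, over Cd3e, -0.035 to 0.55 for Cd3d, -0.17 to 0.36 for Cd3g, -0.56 to 0.89 for Cd4, -0.11 to 0.43 for Cd8a, -0.034 to 0.48 for Cd8b1 and -0.40 to 0.089 for Cd5. With 3 tumors in a genotype and a median SE of 1.21, differences of the size measured here could not be told from the spread.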
